A study of Mus musculus with 6 samples.

Results

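The 10 genes described here encode the transcriptional co-activators YAP and TAZ, a pair of TEAD transcription factors, regulators of the Hippo pathway and classic YAP target genes. They were taken by gene name from a table of 29734 genes: Yap1, Wwtr1 (which encodes TAZ), Tead1, Tead4, Ajuba, Ankrd1, Amotl1, Amotl2, Lats2 and Axl. Expression was measured by poly(A) RNA sequencing of whole liver from male mice that started a Western diet (labelled WD) at 8 weeks of age and received it for 20 weeks. The Prdx1C52S group (3 libraries, numbered 1, 2 and 4) had serine in place of cysteine 52 in peroxiredoxin 1, a thiol peroxidase. The WT group (3 libraries, numbered 6, 8 and 9) carried the wild-type gene. Both groups received the diet, so that the comparison is between genotypes under 1 diet. The sources used here do not say whether each library is 1 animal or a pool, and the p-values measure the spread between these libraries.

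In the Hippo pathway, MST kinases activate LATS kinases, which phosphorylate YAP and TAZ and thereby keep them out of the nucleus. Unphosphorylated YAP and TAZ enter the nucleus, bind TEAD proteins on DNA and activate genes such as Ankrd1, Ccn1 and Ccn2. Several of these targets, among them Lats2 and Amotl2, in turn restrain YAP. The activity of YAP is set largely by phosphorylation and location, which transcript levels do not measure. In the adult liver, YAP is known to be more abundant in bile duct cells than in hepatocytes.

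Levels are given as FPKM, the deposited values per kilobase of transcript and per 1 M fragments, so that genes can be compared within a library. Log2 fold changes are Prdx1C52S minus WT from edgeR's quasi-likelihood test with TMM scaling, with an SE taken from the size of the fold change and the F statistic of its test. Library depth was between 15.1 and 19.0 M fragments, roughly estimated at 4 deposited counts per fragment. The TMM factors were 0.883 to 0.920 in the Prdx1C52S libraries, 1.04 in WT 6, 1.03 in WT 9 and 1.28 in WT 8. Equal FPKM therefore gives a positive log2 fold change: the median over all genes tested was -0.03 with TMM and -0.34 with library totals only. Hepatocyte markers were abundant in all libraries, led by Alb with 18116 to 22278 FPKM, and the change of 1 residue is not visible in gene-level values, so that the genotype labels were not checked. WT 8 stood apart from the other libraries: Krt19, a keratin of bile duct cells, was at 30.9 FPKM there, beside 3.97 in WT 6, 2.09 in WT 9 and 0.507 to 1.59 in the Prdx1C52S libraries. Its mean Pearson correlation with the other libraries over log2 CPM was 0.937, against 0.958 to 0.966 for the others. Fold changes below are therefore given with and without WT 8.

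The largest fold changes were those of Ankrd1, Tead4, Ajuba and Tead1, all lower in Prdx1C52S, while Yap1 itself was at nearly the same level in both groups. Of the 10 genes, 9 had negative log2 fold changes, beside 53% of all genes tested, with a median of -0.51 over the 10. At an unadjusted p under 0.05, 5 of the 10 were lower in Prdx1C52S (Tead1, Tead4, Ajuba, Ankrd1 and Axl) and 0 were higher, beside 14.8% of all 18931 genes tested that were lower and 11.5% that were higher. None passed an adjusted p of 0.05 in edgeR with all 6 libraries, where 0% of all genes passed in either direction and the smallest adjusted p of any gene was 0.0553. Without WT 8, 3 of the 10 passed edgeR's adjusted p of 0.05 and were lower (Ajuba, Axl and Ankrd1), beside 1.94% of 19337 genes lower and 2.7% higher. At an unadjusted p under 0.05, 4 of the 10 were then lower (the same 3 and Tead1) and 0 higher, beside 11.1% and 11.2% of all genes. The median of the 10 was then -0.36, with 9 negative values, beside 51.1% of all genes. With all 6 libraries, DESeq2 called 4 of the 10 lower (Tead1, Ajuba, Ankrd1 and Axl, beside 9.88% of genes lower and 8.02% higher), voom with library quality weights called 3 (Tead1, Ajuba and Axl, beside 5.08% and 5.15%) and limma on log2(FPKM + 1) called 1 (Axl, beside 0.312% and 0.164%).

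**Figure D1:**
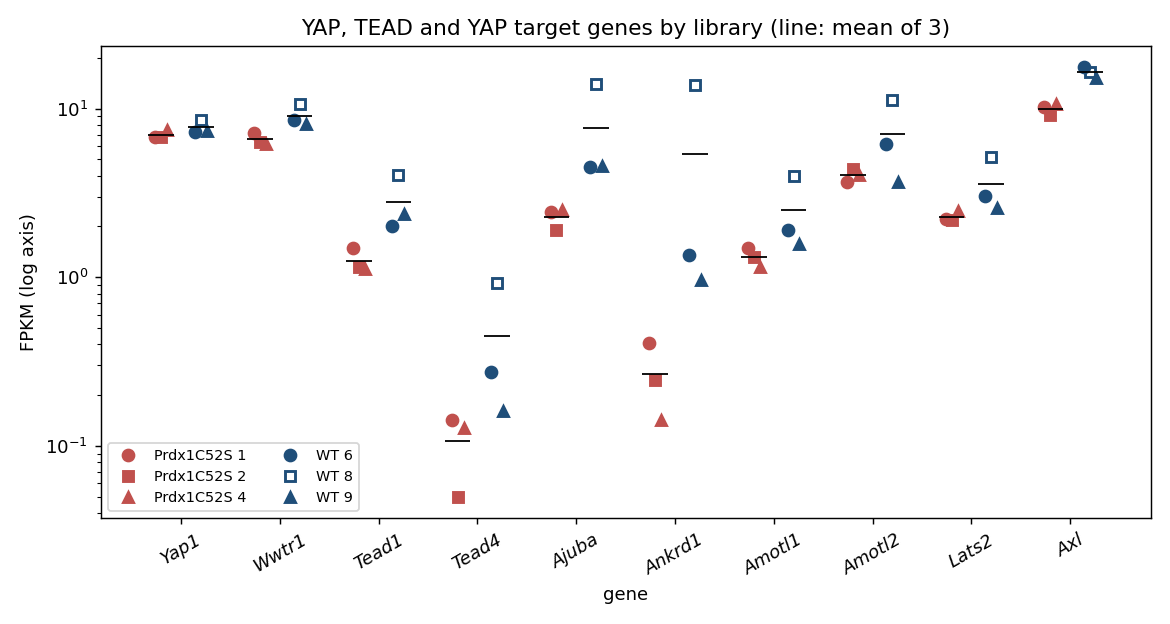
FPKM on a log axis of each of the 10 genes in each library, with Prdx1C52S in red, WT in blue, WT 8 as an open square and a line at the mean of 3. WT 8 is the highest of the 6 libraries for every gene except Axl, and Ankrd1 spans from 0.143 in Prdx1C52S 4 to 13.8 in WT 8.

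The motif that TEAD proteins are known to bind has the core GGAATG, read as CATTCC on the other strand. Both forms were searched in the RefSeq promoter windows of build GRCm38.p6, each 300 bases long from 250 bases before the transcript start. The table holds windows for 8 of the 10 genes (all but Tead1 and Tead4), and the core occurred in a window of 7 of these 8 genes: Ankrd1, Ajuba, Axl, Yap1, Wwtr1, Amotl2 and Lats2. It occurred in 14.7% of all 32851 windows, and at least 1 window of 16.6% of all 27025 genes held it. Ankrd1 and Ajuba held 2 matches each, and 2 or more matches occurred in 1.36% of all windows. The 250 bases before the start are printed for 4 genes, 5′ to 3′ on the strand of the gene, with each match in capitals. Ankrd1 and Ajuba are shown for their 2 matches, Axl as a target whose groups did not overlap, and Yap1 as the co-activator whose level was close in both groups.
Ankrd1 upstream of the start (chr19:36119845-36120094, minus strand): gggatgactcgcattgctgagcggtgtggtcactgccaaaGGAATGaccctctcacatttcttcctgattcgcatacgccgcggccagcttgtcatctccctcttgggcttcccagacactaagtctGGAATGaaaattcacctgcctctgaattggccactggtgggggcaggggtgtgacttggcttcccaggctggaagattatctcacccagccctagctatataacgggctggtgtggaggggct
Ajuba upstream of the start (chr14:54577662-54577911, minus strand): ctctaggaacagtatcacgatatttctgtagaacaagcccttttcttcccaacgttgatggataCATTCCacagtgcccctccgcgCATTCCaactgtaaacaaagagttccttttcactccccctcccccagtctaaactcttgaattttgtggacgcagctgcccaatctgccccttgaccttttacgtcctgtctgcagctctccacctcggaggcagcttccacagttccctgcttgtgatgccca
Axl upstream of the start (chr7:25788734-25788983, minus strand): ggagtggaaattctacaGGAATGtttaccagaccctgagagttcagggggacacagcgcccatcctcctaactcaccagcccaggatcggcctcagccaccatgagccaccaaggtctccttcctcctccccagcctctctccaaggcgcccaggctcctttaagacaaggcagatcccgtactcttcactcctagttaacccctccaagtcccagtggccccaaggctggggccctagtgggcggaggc
Yap1 upstream of the start (chr9:8004597-8004846, minus strand): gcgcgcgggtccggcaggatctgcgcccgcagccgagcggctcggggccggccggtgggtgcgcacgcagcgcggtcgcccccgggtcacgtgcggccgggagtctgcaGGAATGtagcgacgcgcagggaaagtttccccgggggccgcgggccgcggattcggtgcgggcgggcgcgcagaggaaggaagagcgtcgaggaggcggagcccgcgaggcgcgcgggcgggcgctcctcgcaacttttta
In Ankrd1 both matches were on the strand of the gene, starting 210 and 123 bases before the transcript start. In Ajuba both were on the other strand, at 186 and 164 bases before the start, 22 bases apart. The match in Axl began 233 bases before the start and the match in Yap1 141 bases before it. In Amotl2 it was 65 bases before the start, in Lats2 4 bases after it and, for both listed starts of Wwtr1, at the same place on chromosome 3 (57576041 to 57576046). The window of Amotl1 held no match to these letters. The RefSeq starts of Amotl1 (14615000), Amotl2 (102717804) and Ankrd1 (36119844) lie inside the gene coordinates given below. The windows of Amotl1 and Amotl2 therefore do not reach the outer end of the gene, and the sequence before it was not searched. Part of the sequence printed for Ankrd1 lies within its gene coordinates. A match describes the sequence only, and binding was not measured.

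**Figure D2:**
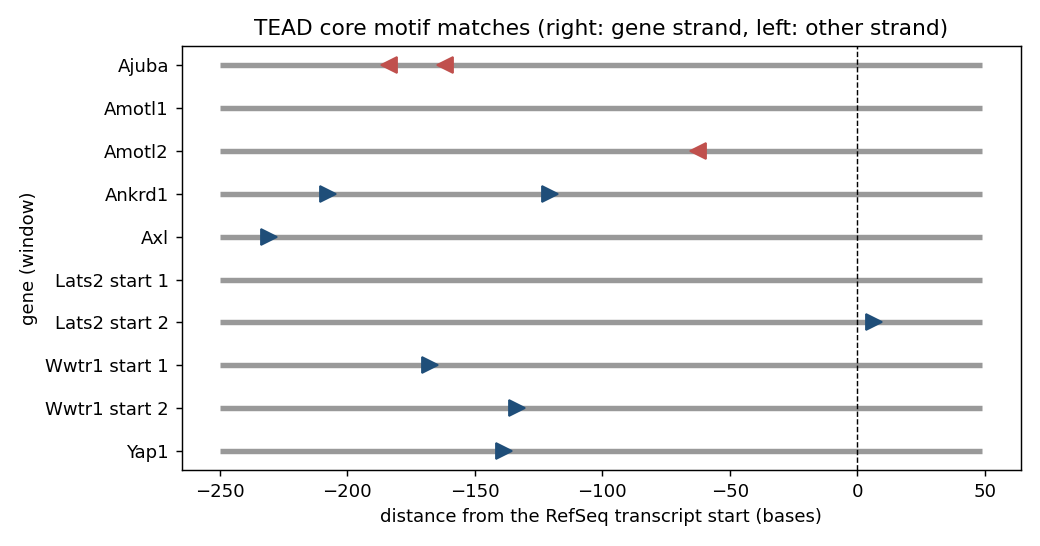
Position of each match to the TEAD core relative to the RefSeq transcript start, in bases, for the 10 windows of the 8 genes; triangles to the right are matches on the strand of the gene and triangles to the left on the other strand. Ankrd1 and Ajuba each show 2 matches, and Amotl1 and one start of Lats2 show none.

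Yap1 (ENSMUSG00000053110, chromosome 9, 7931999 to 8004596 on GRCm38, minus strand) was at 6.80, 6.78 and 7.42 FPKM in Prdx1C52S 1, 2 and 4 and at 7.27, 8.56 and 7.35 FPKM in WT 6, 8 and 9. The groups overlapped in FPKM, since Prdx1C52S 4 lay above WT 6 and WT 9. The means were 7.00 ± 0.363 and 7.73 ± 0.719 FPKM (SD, n = 3). With TMM scaling Yap1 had a log2 fold change of 0.15 (SE 0.09, edgeR adjusted p = 0.326), against -0.15 with library totals only, so that the data give no direction for Yap1. With TMM scaling and no WT 8 it was 0.13.

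Wwtr1 (ENSMUSG00000027803, chromosome 3, 57455649 to 57575910, minus strand), the gene of the YAP paralog TAZ, was at 7.20, 6.37 and 6.15 FPKM in the Prdx1C52S libraries and at 8.55, 10.6 and 8.08 in the WT libraries. All Prdx1C52S values lay below all WT values. This difference did not pass the test (log2 fold change -0.17, SE 0.09, edgeR adjusted p = 0.275, and -0.15 without WT 8). The ratio of Wwtr1 to Yap1 within a library does not depend on library scaling. It was 1.06, 0.940 and 0.830 in the Prdx1C52S libraries and 1.18, 1.24 and 1.10 in the WT libraries, so that the groups did not overlap. In Prdx1C52S, Wwtr1 was the lower of the pair in libraries 2 and 4, and in each WT library it was the higher.

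Tead1 (ENSMUSG00000055320, chromosome 7, 112679318 to 112906807, plus strand), a DNA-binding partner of YAP and TAZ, was at 1.49, 1.15 and 1.12 FPKM in Prdx1C52S and at 2.02, 4.04 and 2.37 in WT. The groups did not overlap, and WT 8 was the highest. The means were 1.25 ± 0.209 and 2.81 ± 1.08 FPKM (SD, n = 3), a log2 fold change of -0.84 (SE 0.19, edgeR adjusted p = 0.0855). Leaving out WT 8 gave -0.62 (SE 0.14, edgeR adjusted p = 0.0509), just short of the threshold.

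Tead4 (ENSMUSG00000030353, chromosome 6, 128224288 to 128300823, minus strand), another TEAD factor, was the lowest of the 10 genes. It was at 0.143, 0.0499 and 0.128 FPKM in Prdx1C52S and at 0.275, 0.919 and 0.160 in WT, which corresponds to between 4 and 68.8 fragments per library. The FPKM values of the groups did not overlap, although Prdx1C52S 1 and WT 9 lay close together. Tead4 had a log2 fold change of -1.66 (SE 0.66, edgeR adjusted p = 0.169), and of -0.81 (SE 0.54, edgeR adjusted p = 0.426) without WT 8.

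Tead2 and Tead3, named after their values were seen, complete the TEAD family. Tead2 was at 0.265, 0.272 and 0.215 FPKM in Prdx1C52S and at 0.634, 2.16 and 0.355 in WT, while Tead3 was at 1.39, 1.5 and 1.35 and at 1.72, 2.93 and 1.83. Tead1 and Tead3 together made up most of the summed FPKM of the 4 genes in each library. The share of Tead1 was 41.3 ± 3.60% in Prdx1C52S and 44.6 ± 5.10% in WT (SD, n = 3). The share of Tead3 was 46.9 ± 4.24% and 35.0 ± 5.14%, and its libraries did not overlap, with 42.2% the lowest in Prdx1C52S and 38.8% the highest in WT. The share of Tead4 did not exceed 9.15% in any library.

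Ankrd1 (ENSMUSG00000024803, chromosome 19, 36111961 to 36119910, minus strand) encodes an ankyrin repeat protein and is among the most used reporters of YAP and TAZ. It was at 0.407, 0.247 and 0.143 FPKM in Prdx1C52S and at 1.35, 13.8 and 0.962 in WT. Every WT library lay above every Prdx1C52S library, and WT 8 was 11.9 times the mean of WT 6 and WT 9. On the log2 scale the difference was -3.87 (SE 1.05, edgeR adjusted p = 0.103) with all libraries and -1.93 (SE 0.42, edgeR adjusted p = 0.0467) without WT 8. The lowest library, Prdx1C52S 4, rested on about 7 fragments and the highest, WT 8, on about 826. Ankrd1 was the gene with the largest spread of the 10: its WT mean of 5.37 FPKM had an SD of 7.30.

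Ajuba (ENSMUSG00000022178, chromosome 14, 54567472 to 54577558, minus strand) encodes a LIM-domain scaffold that binds and restrains LATS kinases. It was at 2.43, 1.89 and 2.49 FPKM in Prdx1C52S and at 4.50, 14.0 and 4.57 in WT. WT 6 and WT 9 agreed closely and lay well above all Prdx1C52S libraries, and WT 8 was 3.09 times their mean. Ajuba differed by -1.39 on the log2 scale (SE 0.37, edgeR adjusted p = 0.101), and by -0.81 without WT 8 (SE 0.14, edgeR adjusted p = 0.0297).

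Axl (ENSMUSG00000002602, chromosome 7, 25757273 to 25788705, minus strand) encodes a receptor tyrosine kinase for GAS6 and is expressed by macrophages as well as being a YAP target. It was at 10.2, 9.18 and 10.6 FPKM in Prdx1C52S and at 17.5, 16.5 and 15.3 in WT. Here WT 8 lay between the other WT libraries, at 1.004 times their mean, and the spread within both groups was small (9.995 ± 0.734 and 16.4 ± 1.14 FPKM, SD, n = 3). The fold change on the log2 scale was -0.43 (SE 0.12, edgeR adjusted p = 0.107) with all libraries and -0.52 without WT 8 (SE 0.10, edgeR adjusted p = 0.0338). Axl passed an adjusted p of 0.05 in 6 of the 15 alternative settings, more than any other of the 10 genes.

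Amotl1 and Amotl2 encode angiomotin-like proteins, which bind YAP and can hold it in the cytoplasm. Amotl1 (ENSMUSG00000013076, chromosome 9, 14541966 to 14643529, minus strand) was at 1.49, 1.33 and 1.14 FPKM in Prdx1C52S and at 1.91, 3.99 and 1.58 in WT. Amotl2 (ENSMUSG00000032531, chromosome 9, 102716672 to 102733418, plus strand) was at 3.67, 4.40 and 4.03 in Prdx1C52S and at 6.16, 11.3 and 3.69 in WT. In FPKM the Amotl1 groups did not overlap, whereas for Amotl2 WT 9 lay within the Prdx1C52S range. After TMM scaling the groups overlapped for both genes. Neither passed the test. Amotl1 had a log2 fold change of -0.57 (SE 0.26, edgeR adjusted p = 0.214), and of -0.21 without WT 8. For Amotl2 these values were -0.46 (SE 0.30, edgeR adjusted p = 0.362) and -0.09 without WT 8.

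Lats2 (ENSMUSG00000021959, chromosome 14, 57689662 to 57746123, minus strand), a kinase that phosphorylates YAP and is itself a YAP target, was at 2.23, 2.17 and 2.47 FPKM in Prdx1C52S and at 3.03, 5.13 and 2.58 in WT. WT 9 lay close to Prdx1C52S 4, although the groups did not overlap in FPKM. Its fold change on the log2 scale was -0.31 (SE 0.17, edgeR adjusted p = 0.29) with all libraries and -0.10 without WT 8. Its paralog Lats1, named after its values were seen, was the more abundant kinase gene in every library except WT 8, where the ratio of Lats2 to Lats1 was 1.05. In the other libraries this ratio was 0.579, 0.584 and 0.705 in Prdx1C52S and 0.708 and 0.650 in WT 6 and WT 9.

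**Figure D3:**
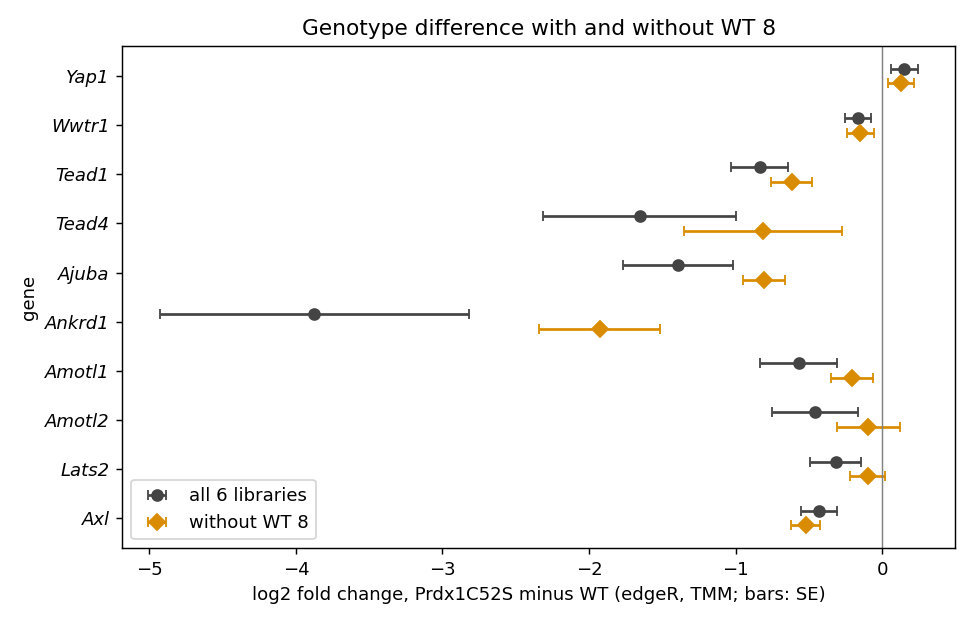
Log2 fold change (Prdx1C52S minus WT, edgeR with TMM scaling) of each of the 10 genes with all 6 libraries and without WT 8, with bars of 1 SE. Without WT 8 the value of Ankrd1 goes from -3.87 to -1.93 and that of Amotl2 from -0.46 to -0.09, while that of Axl goes from -0.43 to -0.52.

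By FPKM in the Prdx1C52S group, Axl was the most abundant, followed by Yap1 and Wwtr1, whose libraries overlapped, then Amotl2. Next came Lats2 and Ajuba, whose libraries overlapped, and Amotl1 and Tead1, which also overlapped, with Ankrd1 and Tead4 lowest at means of 0.266 and 0.107 FPKM. In WT, Axl was again first, at 15.3 FPKM or more in each library. Wwtr1 (9.08 ± 1.35 FPKM) followed and lay above Yap1 (7.73 ± 0.719) in each WT library. Ajuba, Amotl2 and Ankrd1 had means from 7.69 to 5.37 FPKM with SDs of 3.88 to 7.30, so that they did not differ beyond their SDs from Yap1 or from each other. Lats2, Tead1 and Amotl1 came next at 3.58, 2.81 and 2.49 FPKM, within their SDs of each other. In both groups Tead4 was the lowest by mean.

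On FPKM, 8 of the 10 genes had all Prdx1C52S libraries below all WT libraries, beside 36.7% of all genes tested, and 0 lay above, beside 6.09%. After TMM scaling, 5 of the 10 lay below (Wwtr1, Tead1, Ajuba, Ankrd1 and Axl), beside 18% of all genes, and 1, Yap1, lay above, beside 16.9%. With library totals only, 8 of the 10 were lower at an unadjusted p under 0.05 in edgeR, beside 30.4% of all genes lower and 3.73% higher, and 1, Axl, passed the adjusted threshold, beside 0.66% of genes lower and 0.185% higher. WT 8 was the highest of the 6 libraries in FPKM for 9 of the 10 genes, and for 59.4% of all genes tested. After TMM scaling it was the highest for 8 of the 10 and for 31.4% of all genes.

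Marker genes of other cell types were summed beside these genes. In bulk tissue, fewer cells of a type and less RNA per cell cannot be told apart. The summed FPKM of 14 cholangiocyte markers was 74.7 to 146 in Prdx1C52S and 253 to 957 in WT, with 957 in WT 8. Spp1, which macrophages also express, made up 76.9% to 89.2% of this sum. The other 13 markers summed to 12.95 to 20.98 FPKM in Prdx1C52S and to 41.6, 221 and 32.6 in WT 6, 8 and 9. All 14 had negative log2 fold changes (median -3.00, and -1.57 without WT 8), beside 53% of all genes tested. None of the 14 was at 0 in any library. At an unadjusted p under 0.05 in edgeR, 12 of the 14 were lower with all libraries, beside 14.8% of all genes, and 11 without WT 8, beside 11.1%. None passed the adjusted threshold with all libraries, and St14, named after its value was seen, did without WT 8 (edgeR adjusted p = 0.0356, beside 1.94% of all genes lower). Krt7, a further bile duct keratin, was at 0.106 to 0.321 FPKM in Prdx1C52S and at 0.831, 5.53 and 0.465 in WT. The 12 stellate cell and myofibroblast markers summed to 78.9 to 103 FPKM in Prdx1C52S and 120 to 183 in WT, with 8 of 12 negative (median -0.54, and -0.39 without WT 8, where again 8 were negative). At an unadjusted p under 0.05 in edgeR, 6 of the 12 were lower, beside 14.8% of all genes. Without WT 8, 2 of the 12 were lower and 1 higher, beside 11.1% and 11.2%. The list was mixed. Among its negative members were Pdgfrb and Hand2, named after their values were seen. Their log2 fold changes were -0.93 and -0.69 (-0.60 and -0.69 without WT 8). Lrat and Reln had positive values of 0.67 and 0.53 (0.32 and 0.21 without WT 8). Lrat, which stores retinol as esters, was at 6.30 to 8.18 FPKM in Prdx1C52S and at 6.82, 2.88 and 6.71 in WT, and Reln was at 3.22 to 3.56 in Prdx1C52S and at 4.16, 1.68 and 2.60 in WT.

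The 10 macrophage markers summed to 198 to 224 FPKM in Prdx1C52S and 407.9 to 467 in WT, with 9 of 10 negative, and WT 8 had the lowest sum of the WT libraries. Lyz2 was the largest part of this sum, with means of 118 FPKM in Prdx1C52S and 302 in WT. The positive gene was Clec4f, with means of 37.5 and 31.1 FPKM (log2 fold change 0.47, and -0.08 without WT 8). Lyz2 and Clec4f were named after their values were seen. None of these markers passed edgeR's adjusted p of 0.05 with all libraries, where 6 were lower at an unadjusted p under 0.05, beside 14.8% of all genes. Without WT 8, all 10 were negative and 5 passed the adjusted threshold (beside 1.94% of all genes lower). Of the 10 markers, Adgre1 was at 8.64 to 9.69 FPKM in Prdx1C52S and at 17.3, 10.4 and 16.3 in WT, and Cd68 at 14.5 to 21.4 and at 33.5, 25.7 and 29.7. After TMM scaling the groups overlapped for both genes. With all libraries the log2 fold change was -0.41 for Adgre1 (edgeR adjusted p = 0.341) and -0.39 for Cd68 (edgeR adjusted p = 0.27). Without WT 8, Adgre1 passed (-0.67, edgeR adjusted p = 0.0144) and Cd68 did not (-0.57, edgeR adjusted p = 0.0851). The 10 sinusoidal endothelial markers summed to 69.5 to 79.0 FPKM in Prdx1C52S and 50.7 to 94.1 in WT, with the lowest value in WT 8, where Stab2 was at 3.37 beside 9.5 and 8.78 in WT 6 and WT 9. None of these endothelial markers passed with all libraries, where 2 were lower at an unadjusted p under 0.05 in edgeR, beside 14.8% of all genes. Without WT 8, 2 passed as lower, beside 1.94% of all genes, and the list median went from 0.21 to -0.18. One of the 2 was Stab1, which was at 5.72 to 6.59 FPKM in Prdx1C52S and at 9.82 to 10.7 in WT. The hepatocyte sum, dominated by Alb, was 31406 to 34201 in Prdx1C52S and 30273 to 32011 in WT. Of its 10 genes, 7 had positive and 3 negative log2 fold changes, beside 53% of all genes negative. At an unadjusted p under 0.05 in edgeR, 2 were higher and 0 lower, beside 11.5% and 14.8% of all genes. Without WT 8, 3 were higher and 1 lower, beside 11.2% and 11.1%. Only Alb then passed the adjusted threshold (log2 fold change 0.36, edgeR adjusted p = 0.0483), beside 2.7% of all genes higher. With all libraries, where none passed, the log2 fold change of Alb was 0.48. Apoa1 was at 2733 to 3323 FPKM in Prdx1C52S and 3329 to 4129 in WT. Its libraries overlapped between the groups once TMM factors were applied. In edgeR, Apoa1 differed by 0.04 on the log2 scale (adjusted p = 0.910), and by 0.03 when WT 8 was left out. The part of these cell types in the differences of the 10 genes was not tested.

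**Figure D4:**
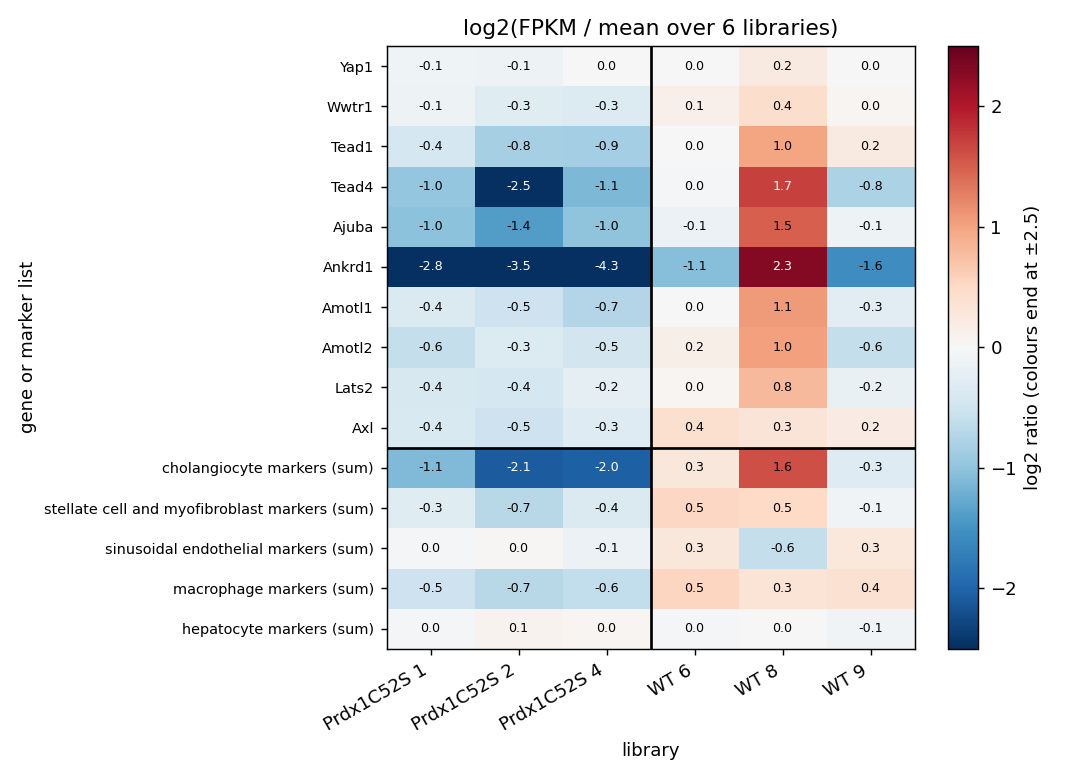
Log2 ratio of FPKM to the mean over the 6 libraries, for the 10 genes (above the line) and for the summed markers of 5 cell types (below it; Spp1 makes up most of the cholangiocyte sum), with Prdx1C52S libraries on the left and WT on the right. The cholangiocyte sum (1.6) and all of the 10 genes except Axl are highest in WT 8, as are 59.4% of all genes tested. The largest ratios there are those of Ankrd1 (2.29), Tead4 (1.72) and Ajuba (1.49). Axl and the stellate cell, endothelial and macrophage sums are highest in WT 6. Lyz2 is the largest part of the macrophage sum.

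Of 28 further pathway genes, all of which were tested, 6 were lower and 2 higher at an unadjusted p under 0.05 in edgeR, beside 14.8% and 11.5% of all genes. Without WT 8, 5 were lower and 3 higher, beside 11.1% and 11.2%. None passed edgeR's adjusted threshold with all libraries or without WT 8. Their median log2 fold change was -0.11, beside -0.03 over all genes tested. The 4 with the smallest p were Mob1b, Ptpn14, Amot and Map4k4. Mob1b, a co-activator of LATS kinases, was at 3.04, 2.84 and 3.06 FPKM in Prdx1C52S and 2.69, 3.54 and 2.64 in WT (log2 fold change 0.32, edgeR adjusted p = 0.0965, and 0.35 without WT 8), with overlapping FPKM. The fold change of Mob1b depended on the scaling: it was 0.0043 with library totals only and 0.016 with limma on log2(FPKM + 1). Ptpn14, a phosphatase that binds YAP, was at 0.443, 0.286 and 0.242 in Prdx1C52S and 1.06, 3.89 and 0.597 in WT (-2.11, and -1.16 without WT 8). Amot, the founding angiomotin, was at -0.78 on the log2 scale and at -0.49 without WT 8, and Map4k4, a kinase upstream of LATS, at -0.78 and -0.44. In DESeq2 these 4 genes passed, with adjusted p-values from 0.00178 (Ptpn14) to 0.0277 (Map4k4), beside 9.88% of all genes lower and 8.02% higher. They were picked by their p in the same libraries, so that their passing is no independent result.

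Of 26 further YAP target genes, 25 were tested, and 12 were lower and 0 higher at an unadjusted p under 0.05 in edgeR, beside 14.8% and 11.5% of all genes, with 0 past the adjusted threshold. Their median log2 fold change was -0.80 and was -0.36 without WT 8, where 8 were lower and 1 higher at an unadjusted p under 0.05, beside 11.1% and 11.2%. The remaining gene, Foxf2, did not pass the filter on low counts. The list also holds genes of bile duct cells and of matrix-producing cells, such as Sox9, Jag1 and Tagln.

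The classic targets outside the 10 genes were Ccn2 and Ccn1. Ccn2, a matricellular protein gene also known as Ctgf, was at 6.18, 3.90 and 5.87 FPKM in Prdx1C52S and at 17.2, 15.6 and 7.40 in WT. Its groups did not overlap, and it differed by -1.03 on the log2 scale (SE 0.31, edgeR adjusted p = 0.113), and by -1.02 without WT 8. Ccn1, also known as Cyr61, was at 8.04, 6.55 and 8.44 in Prdx1C52S and at 5.33, 18.0 and 8.64 in WT, so that the groups overlapped. Ccn1 had a log2 fold change of -0.12 (edgeR adjusted p = 0.846), and of 0.33 (edgeR adjusted p = 0.427) without WT 8. The difference between Ccn1 and Ccn2 was not tested.

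The target genes with the smallest p were Ccdc80, Myof, Thbs1 and Fstl1. Ccdc80, a secreted matrix protein gene, was at 4.895, 3.40 and 4.56 FPKM in Prdx1C52S and at 14.5, 19.6 and 8.35 in WT (log2 fold change -1.40, SE 0.25, edgeR adjusted p = 0.0711, and -1.23 without WT 8). Myof, which encodes the membrane repair protein myoferlin, was at 0.957, 0.616 and 1.03 in Prdx1C52S and 2.29, 4.67 and 1.76 in WT (-1.40, edgeR adjusted p = 0.0842, and -1.03 without WT 8). For both genes all WT libraries lay above all Prdx1C52S libraries. Thbs1, the gene of thrombospondin, was at -1.13 on the log2 scale and -0.73 without WT 8, and Fstl1, a secreted glycoprotein gene, at -1.09 and -0.70. In DESeq2 these 4 genes and Ccn2 passed, with adjusted p-values from 2.3e-05 (Ccdc80) to 0.0139 (Ccn2). DESeq2 called 9.88% of all genes lower and 8.02% higher. The 4 genes were picked by their p in the same libraries, so that their passing is no independent result.

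The genes most like Yap1 over the 6 libraries, by Pearson's correlation of TMM-scaled log2 CPM among genes with a mean of at least 1 FPKM, were the predicted gene Gm10734 (0.996), Cdk5rap3 (0.990) and Kdelr2 (0.988). These are the highest values of a search over all such genes, with 6 points that share their library scaling, and are given as a description.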

How the data were processed

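Poly(A) liver RNA was sequenced as 3 Prdx1C52S and 3 WT libraries with strand marking, per the labels' protocols. FPKM values were deposited by the authors for 29734 genes, per the file headers. The deposited estimated counts, per the file headers, are whole numbers taken here as about 4 per fragment. A count of 4 occurs 6204 times, more often than 3 (3538) or 5 (1965), and 8 occurs 2568 times, more often than 7 (2334) or 9 (1374). Counts of 1 (5315) and 2 (3954) also occur, and 12 (1324) is rarer than 11 (1540), so that fragment numbers are rough. If 1 fragment gives several counts, count models treat low genes as more precise than they are. Tools listed in the submitters' processing notes include StringTie 1.3.4d, HISAT2 2.0.4, cutadapt 1.9 and UMI-tools, and the build listed is mm9. The coordinates are those of GRCm38, and 7 of the 10 genes have the same start and end in GENCODE M21. Another gene overlaps 3 of the 10 genes on their own strand and 6 on the opposite one, and the sources used here do not say whether counting used the strand.

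The rounded counts went into edgeR 4.0.16 (R 4.3.3) with TMM factors, the filterByExpr filter and robust two-sided quasi-likelihood F-tests without covariates, and p-values were adjusted by Benjamini-Hochberg over all 18931 genes tested (threshold 0.05). All 10 genes passed the filter. DESeq2 1.42.0, limma 3.58.1 on log2(FPKM + 1) and log2(FPKM + 0.1), voom, other scalings, no filter, counts divided by 4 and leaving out each library were alternatives. The code was tested on simulated data. The genes named were the 10, Ccn1 and Ccn2, the 4 of each of 2 pathway lists with the smallest p, the 3 most like Yap1 and the first 2 markers of each cell type list. The 10 genes and all lists were chosen with earlier results of these data known, so no list was tested.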

Additional observations from a re-analysis of the deposited data

How the results depend on the processing

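No paired analysis was possible because the groups share no library numbers. Over the 15 alternatives, 9 of the 10 genes kept a negative log2 fold change in each; Yap1 was at -0.15 with library totals only, -0.12 with limma on log2(FPKM + 1) and -0.14 on log2(FPKM + 0.1). Of the 150 values of the 10 genes, 134 kept direction and side of the threshold, 13 newly passed it and 3 changed sign.

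The number of the 10 genes lower at adjusted p 0.05 was 4 with DESeq2, 3 with voom, and 1 with library totals only, with limma on log2(FPKM + 1) and with limma on log2(FPKM + 0.1), and ran from 0 to 3 on leaving out each library, with 3 without WT 8. The number lower at unadjusted p under 0.05 was 8 with library totals only and ran from 4 to 8 on leaving out each library, with 8 without WT 9 (beside 16.5% of genes lower and 13.6% higher). The median of the 10 was -0.87 with library totals only, and from -0.74 (without WT 9) to -0.36 (without WT 8) on leaving out each library.

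Of all genes, those lower and higher at adjusted p 0.05 were 1723 and 1399 with DESeq2, 962 and 975 with voom, 125 and 35 with library totals only, 59 and 31 with limma on log2(FPKM + 1), 208 and 63 on log2(FPKM + 0.1), 91 and 105 with no filter, and 40 and 43 with counts divided by 4. On leaving out each library they ran from 0 to 375 lower and 0 to 522 higher, both highest without WT 8. With upper quartile factors and with DESeq2 size factors in edgeR they were 0 and 0. The cause of these differences was not tested.

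Of the 345 values of the other 23 named genes, 304 kept direction and side of the threshold, 26 newly passed it (among them Ccdc80, Myof, Ccn2, Ptpn14 and Thbs1 with DESeq2) and 15 changed sign. The sign changed for Ccn1 (0.40 with voom, and from -0.41 without WT 6 to 0.33 without WT 8 on leaving out each library), Cdk5rap3 (-0.034 with library totals only, -0.024 and -0.025 with limma at the pseudocounts 1 and 0.1), Kdelr2 (-0.095, -0.083 and -0.085 in the same settings), Apoa1 (-0.27, -0.26 and -0.26 in the same settings, and from -0.024 without Prdx1C52S 4 to 0.13 without Prdx1C52S 1) and Stab2 (-0.0089 with library totals only, -0.061 with voom, and from -0.15 without WT 8 to 0.51 without WT 6).

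With 3 libraries a group, and a common biological coefficient of variation of 0.31 (0.245 without WT 8), depth limits Ankrd1 in Prdx1C52S and Tead4 in all libraries but WT 8, at 99 counts or fewer in each, about 4 counts being worth roughly 1 fragment.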
